A study of Mus musculus with 12 samples.

Results

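Mouse embryos labelled p53 wild type were compared 1 h after 30 Gy of X-rays with untreated embryos of the same label, all at embryonic day 9.5. The comparison rests on 4 of the 12 libraries of the series, chosen by their labels and not by any measured value: 2 libraries at 1 h and 2 untreated, numbered 1 and 2 in the labels. It covers 15535 of the 53647 gene IDs, those at 1 TPM or more in at least 2 of the 12 libraries. TPM is transcript abundance corrected for transcript length and scaled to a fixed sum within a library. The 1 h embryos carried p53 +/+ by label and were irradiated in the pregnant dam at 5 Gy per minute, and the untreated embryos carried p53 +/+ by label and were not irradiated. Where the response is set against that of embryos labelled p53 -/-, their groups are 2 libraries at 1 h after the same dose and 2 untreated libraries. The 3 h groups of both labels entered the fit only through the shared estimate of the spread. The labels give neither the strain, the allele of the knockout, the somite number, the litter nor how many embryos made a library. A p-value here sets a difference of group means against the spread between the 2 libraries of a group, pooled over all 6 groups. That spread may be technical.

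Ionizing radiation breaks both strands of DNA, and the kinase ATM then signals to p53, a transcription factor that is otherwise held low by the ubiquitin ligase MDM2. Stabilised p53 turns on genes of cell cycle arrest such as Cdkn1a (p21), of feedback such as Mdm2 and of cell death, and these are among the earliest transcripts to respond. The embryo at this stage is closing its neural tube, making its first neurons and adding trunk and tail segments. Hox genes are switched on in the order of their paralog groups as the trunk extends, so the groups with high numbers mark the posterior body, and Otx2 and En1 mark the forebrain and midbrain.

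Trp53, which encodes p53, serves as a check of the labels. Its level was 114 and 66.8 TPM in the 1 h libraries numbered 1 and 2, against 114 and 211 TPM in the untreated libraries numbered 1 and 2. In libraries labelled knockout the level was 250 and 210 TPM at 1 h, against 265 and 79.1 TPM untreated. At 3 h it was 242 and 220 TPM in libraries labelled knockout, against 93.7 and 68.03 TPM in those labelled wild type. Trp53 transcript was thus higher under the knockout label for 5 of 6 matches by time and library number, which goes against the labels, and the exception was the untreated pair numbered 2. All directions given here go by the labels and not by the Trp53 level. The log2 difference of Trp53 between 1 h and untreated was -0.82 (SE 0.535, not past the threshold), with 0.004 within number 1 and -1.65 within number 2.

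The 1 h library numbered 2 stood apart. On the first principal component of all tested genes it lay at 67.9, next to the 1 h library labelled knockout and numbered 2 at 66.4, with the other 10 libraries between -46.1 and 11.8. Cytosolic ribosomal protein genes took 12.5% and 19.9% of all TPM in the 1 h libraries numbered 1 and 2, against 13.1% and 13.4% in the untreated libraries. Both 1 h libraries and the untreated library numbered 1 held the Y-linked transcript Ddx3y (14.0, 17.2 and 12.5 TPM), whereas the untreated library numbered 2 held none and had 52.98 TPM of Xist. The medians of most lists below are therefore also given within each number. The value within number 1 leaves out both libraries numbered 2, and these within-number values have no test of their own. For single genes the libraries stand in the order of their numbers. TPM keeps no read depth, so the depth of each library is unknown and no counting error can be given.

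No gene passed the threshold. limma with Benjamini-Hochberg adjustment called 0 of 15535 genes (0%) at an adjusted p under 0.05. The smallest adjusted p from limma was 0.316, for AI197445, a gene model named here after its value was seen. This gene was called when no filter on low values was used. AI197445 had 0.05 and 0.01 TPM at 1 h, against 1.69 and 1.77 TPM untreated. It passed the filter only through those untreated libraries, where it is high, so its p-value does not stand as support. At an unadjusted p under 0.05 there were 238 genes higher at 1 h (1.53% of those tested) and 380 lower (2.45%). Scaling moved this split: with median-of-ratios size factors 362 of 724 such genes were higher, and with quantile normalization 379 of 716. When the library number was added as a replicate block, limma again called 0 genes, with 653 higher and 956 lower at an unadjusted p under 0.05. Both 1 h libraries lay above both untreated libraries for 1649 genes (10.6%) and below both for 2490 genes (16%). A difference past 2-fold in the same direction within both numbers was found for 19 genes higher at 1 h (0.122%) and 41 lower (0.264%). Leaving out single libraries moved these counts: limma called 2 genes without the untreated library numbered 1, and at an unadjusted p under 0.05 there were 345 genes without the 1 h library numbered 2 and 1449 without the 1 h library numbered 1. These shares are the background against which the gene groups below are read. The median log2 difference of all tested genes was -0.02, with -0.03 within number 1 and 0 within number 2.

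The spread of the differences was unequal between the numbers. Past 2-fold, number 1 held 336 genes, 169 higher and 167 lower, and number 2 held 1098, 354 higher and 744 lower, and 59 genes passed 2-fold in opposite directions. Across genes, which are not independent replicates, the differences of number 1 and number 2 correlated at a Pearson r of 0.0507. Between the labels, the differences of 1 h and untreated correlated at 0.622 over all tested genes. This was 0.159 within number 1 and 0.771 within number 2. A sign shared with the knockout label is read below against these values.

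**Figure D1:**
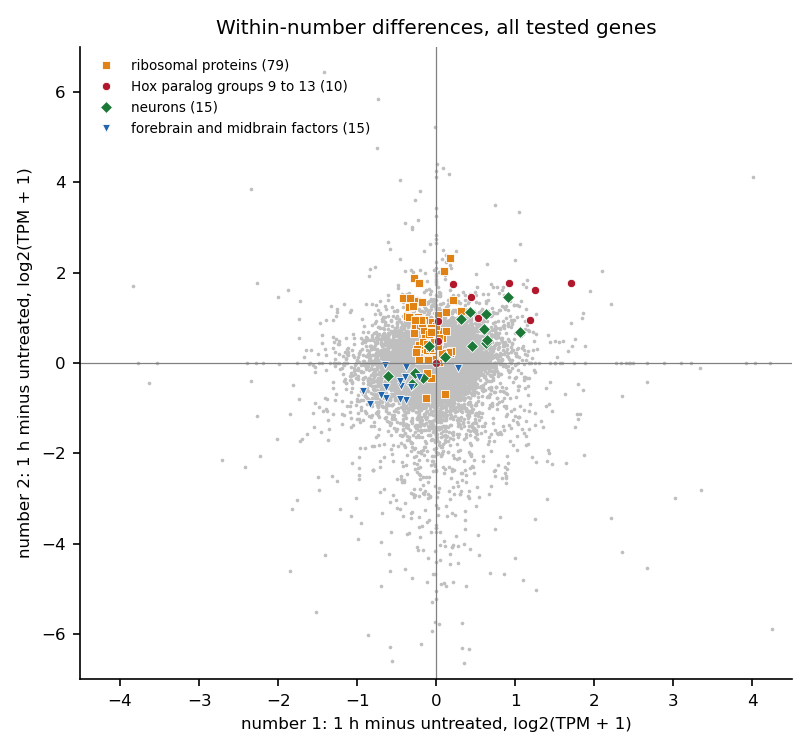
Difference between 1 h and untreated libraries labelled p53 wild type, log2(TPM + 1), within number 1 (horizontal axis) and within number 2 (vertical axis), with a grey point per tested gene and colours for 4 gene lists; 9 genes lie outside the axes. The cloud is wider for number 2, the Hox genes of paralog groups 9 to 13 lie towards the upper right and the forebrain and midbrain factors towards the lower left, while ribosomal protein genes are spread upwards within number 2 alone.

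The p53 target genes were close to their untreated levels in these libraries. Of 51 targets tested, 0 were called and 0 passed 2-fold, and their median log2 difference was -0.02, equal to that of all tested genes to 2 decimals. Both 1 h libraries lay above both untreated ones for 7 of the 51 and below both for 5. Cdkn1a (ENSMUSG00000023067), which inhibits cyclin-dependent kinases, had 6.01 and 8.36 TPM at 1 h, against 5.91 and 6.60 TPM untreated (0.16, SE 0.187). The groups overlapped, since the untreated library numbered 2 lay above the 1 h library numbered 1. Mdm2, the ubiquitin ligase that restrains p53, had 46.3 and 41.9 TPM at 1 h, against 33.7 and 36.1 TPM untreated (0.33, SE 0.151). Rprm, an inhibitor of mitotic entry, had 24.4 and 25.2 TPM at 1 h, against 17.4 and 18.0 TPM untreated (0.46, SE 0.168). The groups did not overlap in Mdm2 or Rprm, and neither gene was called. Zmat3, a splicing regulator, had 10.1 and 5.71 TPM at 1 h, against 10.5 and 16.3 TPM untreated (-0.71, SE 0.298), a gap that lay almost wholly within number 2. Zmat3 was highest in the untreated library numbered 2, which also had the highest Trp53 level of the 4 libraries (211 TPM). Cdkn1a, Mdm2 and Rprm were each highest in a 1 h library. The part of the Trp53 level was not tested.

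The other genes of the series title did not pass the test either. Ccng1, cyclin G1, had 10.7 and 12.6 TPM at 1 h, against 10.1 and 29.2 TPM untreated (-0.54, SE 0.448), and its sign turned to 0.07 within number 1. Foxo3, a forkhead transcription factor, had 8.91 and 10.2 TPM at 1 h, against 12.3 and 13.5 TPM untreated (-0.40, SE 0.232). Both 1 h libraries lay below both untreated ones in Foxo3 alone of these 4 genes. Fbxw7, the substrate receptor of a ubiquitin ligase, had 14.3 and 9.65 TPM at 1 h, against 12.1 and 13.1 TPM untreated (-0.09, SE 0.184), with opposite signs within the numbers.

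The response differed from that of the embryos labelled knockout in 1 gene past the threshold, Cdkn1a. The labelled knockout libraries had 79.4 and 76.2 TPM of Cdkn1a at 1 h, against 6.88 and 5.38 TPM untreated, a log2 difference of 3.47. Wild type minus knockout response was -3.31 (SE 0.264, limma, Benjamini-Hochberg adjusted p = 0.0130), the 1 call among 15535 genes (0.00644%), with 188 genes at an unadjusted p under 0.05. Left out singly, 6 libraries ended this call. The adjusted p was 0.05 without number 1 of the 1 h group labelled wild type and 0.156 without number 2 of its untreated group. Among the libraries labelled knockout it was 0.119 and 0.052 without the 1 h library numbered 1 or 2, and 0.0544 and 0.104 without the untreated library numbered 1 or 2. Fitted on the groups compared alone, the adjusted p was 0.375. Without the untreated library labelled wild type and numbered 1, limma called 4 differences, Cdkn1a among them (adjusted p = 0.0393).

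Other p53 targets differed between the labels in the same direction. At an unadjusted p under 0.05 the wild type response was the lower one for 17 of the 51 targets, Cdkn1a among them, and the higher one for 0. Of all tested genes, these targets included, it was the lower one for 99 (0.637%) and the higher one for 89. Sesn2, a sestrin that restrains mTOR signalling, had 8.98 and 10.7 TPM at 1 h, against 8.15 and 12.1 TPM untreated, while the libraries labelled knockout had 63.8 and 77.9 TPM at 1 h, against 10.2 and 9.33 TPM untreated (difference of responses -2.76, adjusted p = 0.0693). In the fit with the replicate block limma called 8 differences, 5 of them p53 targets: Cdkn1a and Sesn2 (adjusted p = 0.00811 each), Trp53inp1 (0.00849), Btg2 and Plk2 (0.0201 each). The other three were Hoxc6, Ddias and Slc19a2, and all 8 were lower in the wild type response. Both comparisons of 1 h with untreated used their own libraries.

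The promoter of Cdkn1a is shown because this gene carries the difference between the labels. In the RefSeq table of build GRCm38.p6 it is the window of 250 bases before the upstream of 2 annotated starts, chr17:29090729-29090978, plus strand. Capitals mark matches to the p53 half-site, beginning 73 and 51 bases before the start.
Cdkn1a, upstream start: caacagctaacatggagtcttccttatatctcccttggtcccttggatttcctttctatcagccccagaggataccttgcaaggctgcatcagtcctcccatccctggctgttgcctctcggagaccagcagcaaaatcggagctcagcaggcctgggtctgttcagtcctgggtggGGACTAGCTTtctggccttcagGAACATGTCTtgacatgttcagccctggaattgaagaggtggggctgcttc
Of 32851 promoter windows of this length, 7.13% hold at least 1 such match on either strand, and the window of the downstream start of Cdkn1a holds 0. A match is a description of letters and not of binding.

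**Figure D2:**
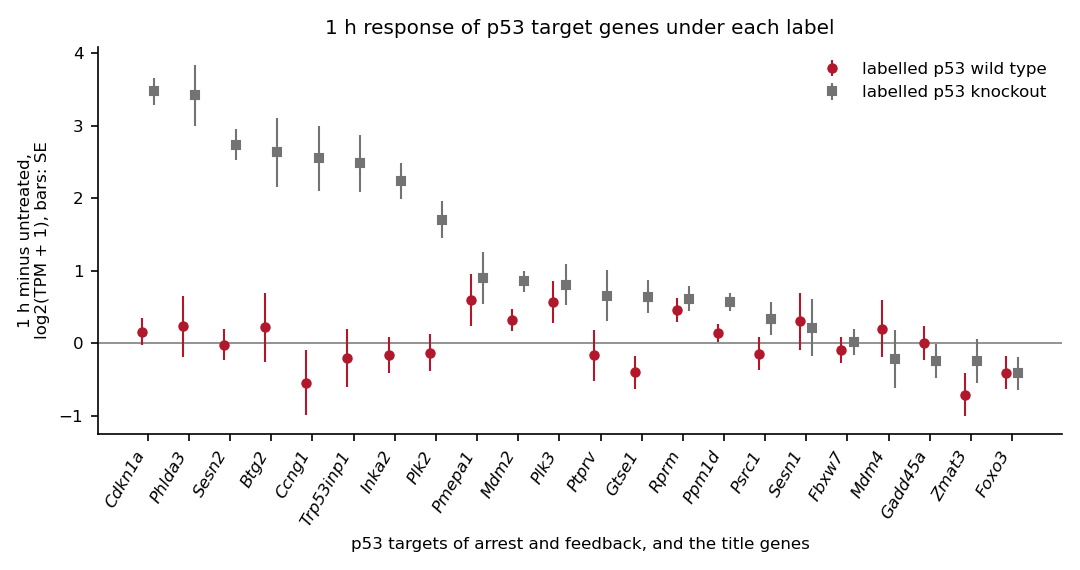
Log2 difference between 1 h and untreated libraries, log2(TPM + 1) with SE bars from the limma fit, for 20 p53 targets of arrest and feedback and the genes of the series title, in libraries labelled p53 wild type (red circles) and labelled p53 knockout (grey squares). The wild type values lie between -0.71 and 0.60, while Cdkn1a is at 3.47 under the knockout label and 0.16 under the wild type label.

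Posterior Hox genes were higher at 1 h. Of 10 tested genes of paralog groups 9 to 13, 8 lay above both untreated libraries in both 1 h libraries and 0 below, 5 had an unadjusted p under 0.05, and 0 were called. Their median log2 difference was 0.97, with 0.48 within number 1 and 1.24 within number 2. Of all 16 members, tested or not, 9 were higher and 0 lower without overlap. Hoxc10, Hoxa11 and Hoxd11 passed the filter only through 1 h libraries, where they are high. Hoxa10 would not have passed without the 1 h libraries, since elsewhere it reached 1 TPM only in the 3 h library labelled wild type and numbered 2 (1.13 TPM). The count and the median over the tested members therefore describe them and do not stand as support. Of 11 genes of groups 5 to 8, 6 were higher without overlap and 0 lower, with a median of 0.41 (0.30 within number 1 and 0.56 within number 2). The 12 genes of groups 1 to 4 had a median of -0.04 (-0.14 within number 1 and -0.01 within number 2), with 3 higher and 4 lower without overlap.

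Hoxc10, of the lumbar region, had 2.47 and 2.58 TPM at 1 h, against 0.06 and 0.04 TPM untreated (1.75, SE 0.599). Hoxc9, of the thoracic region, had 4.61 and 5.83 TPM at 1 h, against 1.96 and 0.99 TPM untreated (1.35, SE 0.357). Hoxd10 had 3.26 and 3.75 TPM at 1 h, against 0.88 and 1.47 TPM untreated (1.06, SE 0.299). In each of these genes the groups did not overlap and the difference held within both numbers. Hoxc9 is among the genes taken by a rule that asks for both, so for it this was a condition and not a result. Hoxa10 had 2.19 and 3.89 TPM at 1 h, against 0.34 and 0.59 TPM untreated (1.44, SE 0.504), and Hoxa9 had 10.4 and 15.4 TPM at 1 h, against 7.41 and 4.90 TPM untreated (0.95, SE 0.337). Hoxb9, at a much higher level, had 54.3 and 58.6 TPM at 1 h, against 53.2 and 41.7 TPM untreated (0.25, SE 0.21), so that its gap lay within number 2. Hoxc13 was listed at 0 in all 4 libraries.

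Among the trunk genes of groups 5 to 8, Hoxb7 had the smallest p, with 11.0 and 11.4 TPM at 1 h, against 5.73 and 4.15 TPM untreated (1.05, SE 0.224, adjusted p = 0.890). Hoxc8 had 17.02 and 14.3 TPM at 1 h, against 11.8 and 6.54 TPM untreated (0.76, SE 0.259). Hoxb8 had 30.4 and 31.2 TPM at 1 h, against 23.3 and 20.9 TPM untreated (0.46, SE 0.163). These 3 genes did not overlap between the groups, which for Hoxb7 was a condition of the same rule. Hoxa5, Hoxb5, Hoxc5 and Hoxb6 lay between -0.01 and 0.09 on the log2 scale and overlapped. In groups 1 to 4, which had no common direction, the 2 genes with the smallest p were lower. Hoxa2, a hindbrain gene, had 13.7 and 14.7 TPM at 1 h, against 19.7 and 19.8 TPM untreated (-0.45, SE 0.178), and Hoxb2 had 26.2 and 30.1 TPM at 1 h, against 36.9 and 37.9 TPM untreated (-0.40, SE 0.147).

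The embryos labelled knockout had the same sign, with a median of 1.77 for groups 9 to 13 and 1.23 for groups 5 to 8. Of these genes, Hoxc6 came nearest to a difference between the labels, with 14.0 and 18.4 TPM at 1 h, against 11.2 and 11.3 TPM untreated, under the wild type label, and 18.5 and 20.1 TPM at 1 h, against 2.26 and 2.56 TPM untreated, under the knockout label. In the wild type time course Hoxc10 had 0.06 and 0.04 TPM untreated, 2.47 and 2.58 TPM at 1 h, and 0 and 0.36 TPM at 3 h. Hoxb7 had 5.73 and 4.15 TPM untreated, 10.98 and 11.4 TPM at 1 h, and 8.03 and 5.91 TPM at 3 h. With no stage beyond the embryonic day in the labels, a difference of stage between the embryos and a response to irradiation cannot be told apart.

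**Figure D3:**
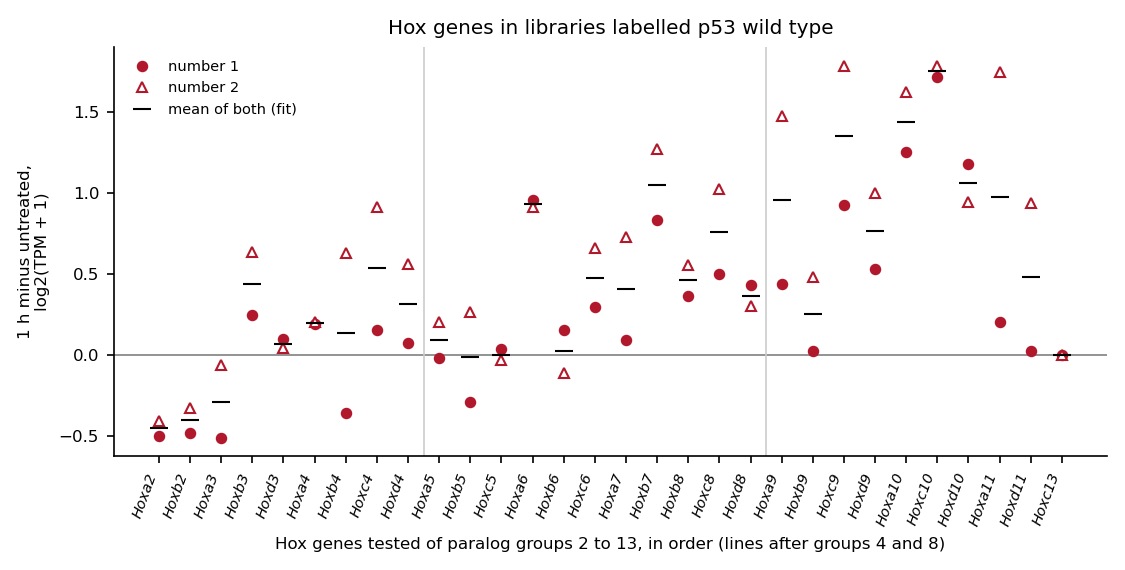
Difference between 1 h and untreated libraries labelled p53 wild type, log2(TPM + 1), for each tested Hox gene of paralog groups 2 to 13 in order, within number 1 (filled circles), within number 2 (open triangles) and as their mean in the fit (dashes). Values run from -0.45 for Hoxa2 at the left to 1.75 for Hoxc10 near the right end.

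Forebrain and midbrain factors were lower at 1 h. Of 15 tested, 12 lay below both untreated libraries in both 1 h libraries and 0 above, 6 had an unadjusted p under 0.05 and 0 were called. The median was -0.48, with -0.46 within number 1 and -0.52 within number 2, and -0.79 under the knockout label. Otx2, needed to form the forebrain and midbrain, had 25.4 and 21.4 TPM at 1 h, against 39.98 and 37.6 TPM untreated (-0.71, SE 0.148, adjusted p = 0.890). En1, of the midbrain and hindbrain boundary, had 4.37 and 3.53 TPM at 1 h, against 8.62 and 7.48 TPM untreated (-0.87, SE 0.234). Otx1 had 6.87 and 6.30 TPM at 1 h, against 13.9 and 10.1 TPM untreated (-0.77, SE 0.219). The groups were apart in all 3 genes and within both numbers. At 3 h Otx2 stood at 42.3 and 39.7 TPM, next to the untreated values. Here too, a difference of stage and a response to irradiation cannot be told apart.

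Genes of differentiated neurons were higher. Of 15 neuron genes tested, 9 were higher and 4 lower without overlap, 4 had an unadjusted p under 0.05, all of them higher, and the median was 0.53 (0.43 within number 1 and 0.44 within number 2). Nefm, a neurofilament subunit outside this list, had 33.2 and 42.1 TPM at 1 h, against 15.03 and 11.9 TPM untreated (1.417, SE 0.323). Stmn2, a microtubule regulator of growing axons, had 17.0 and 24.8 TPM at 1 h, against 8.60 and 8.39 TPM untreated (1.18, SE 0.302). Tubb3, the tubulin of neurons, had 89.1 and 120 TPM at 1 h, against 57.3 and 56.4 TPM untreated (0.85, SE 0.272). In all 3 genes the groups did not overlap, and the difference was larger within number 2 than within number 1. Nefm and Stmn2 are among the genes taken by a rule that asks for no overlap, so for them it was a condition and not a result. Mapt, which encodes tau, had 3.07 and 3.14 TPM at 1 h, against 0.96 and 1.58 TPM untreated (0.87, SE 0.273). Stmn4, a relative of Stmn2 outside the list and taken by the same rule, had 9.5 and 7.88 TPM at 1 h, against 1.92 and 3.44 TPM untreated (1.423, SE 0.461).

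Among the neuron genes that lay lower without overlap were Neurog1 and Neurog2, proneural factors that start neurogenesis in progenitors, named here after their values were seen. Neurog1 had 10.9 and 10.1 TPM at 1 h, against 13.7 and 14.4 TPM untreated (-0.39, SE 0.243). Neurog2 had 8.85 and 9.04 TPM at 1 h, against 10.9 and 10.8 TPM untreated (-0.25, SE 0.164). In bulk embryos, more neurons and more neuronal RNA per cell cannot be told apart. Nor can a difference of stage between the embryos and a response to irradiation.

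**Figure D4:**
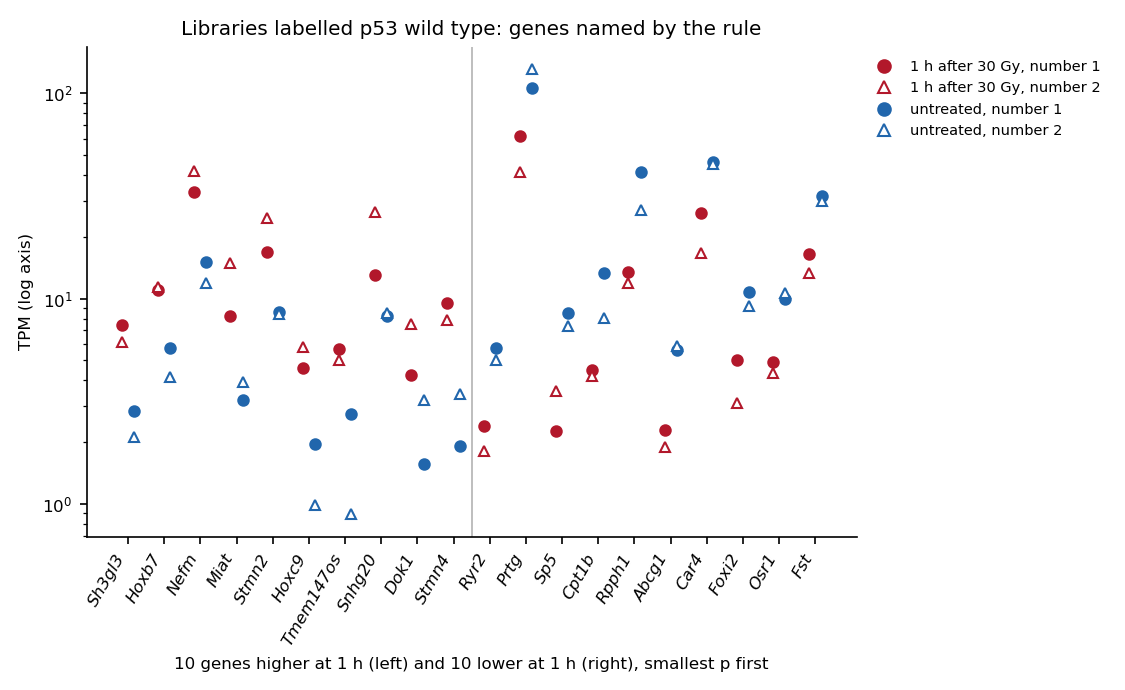
TPM on a log axis in the 1 h libraries (red, left of each pair) and the untreated libraries (blue, right) labelled p53 wild type, number 1 filled and number 2 open, for 10 genes higher and 10 genes lower at 1 h by a fixed rule. The rule asks for a log2 difference of at least 1 and for groups that do not overlap, so the gap in every column is a condition of the choice and not a result.

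Among the 20 genes taken by size and consistency, the other higher ones were Sh3gl3, Miat, Tmem147os, Snhg20 and Dok1. Sh3gl3, an endophilin of the synapse, had the smallest p of the higher genes, with 7.45 and 6.16 TPM at 1 h, against 2.85 and 2.13 TPM untreated (1.16, SE 0.191, limma, Benjamini-Hochberg adjusted p = 0.890). Miat, a long non-coding RNA, had 8.25 and 14.9 TPM at 1 h, against 3.21 and 3.95 TPM untreated (1.41, SE 0.346). Snhg20, a host of a small nucleolar RNA, had 12.98 and 26.6 TPM at 1 h, against 8.28 and 8.50 TPM untreated (1.06, SE 0.312). The 10 higher genes had log2 differences of 1.02 to 1.423 and included 5 neuronal genes or Hox genes named above.

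The 10 lower genes had log2 differences of -1.33 to -1.0. Prtg, protogenin, a surface receptor of the early neural tube and paraxial mesoderm, had 62.3 and 41.3 TPM at 1 h, against 106 and 131 TPM untreated (-1.20, SE 0.236). Ryr2, the calcium release channel of heart muscle, had 2.39 and 1.82 TPM at 1 h, against 5.74 and 5.03 TPM untreated (-1.04, SE 0.19). Fst, follistatin, which binds activin, had 16.6 and 13.3 TPM at 1 h, against 31.5 and 30.01 TPM untreated (-1.0, SE 0.286). For Prtg, Ryr2 and Fst the knockout label gave the same sign (-1.66, -1.39 and -1.38), beside a correlation of 0.622 between the labels over all tested genes. Rpph1, the RNA of ribonuclease P and not a typical polyadenylated transcript, had 13.5 and 12.0 TPM at 1 h, against 41.5 and 27.1 TPM untreated (-1.33, SE 0.289), in libraries made by polyA selection. Cpt1b, the carnitine palmitoyltransferase of muscle, had 4.5 and 4.21 TPM at 1 h, against 13.4 and 8.07 TPM untreated (-1.09, SE 0.226). Abcg1, Car4, Foxi2 and Osr1 made up the rest besides Sp5.

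Sp5, a transcription factor and direct target of Wnt signalling, had 2.27 and 3.54 TPM at 1 h, against 8.48 and 7.33 TPM untreated (-1.21, SE 0.239, adjusted p = 0.890). Its promoter window is shown because Sp5 was the Wnt target with the smallest p. In RefSeq (GRCm38.p6) it is chr2:70474673-70474922, plus strand, and capitals mark the TCF/LEF core CTTTGA, beginning 204 and 104 bases before the start.
Sp5: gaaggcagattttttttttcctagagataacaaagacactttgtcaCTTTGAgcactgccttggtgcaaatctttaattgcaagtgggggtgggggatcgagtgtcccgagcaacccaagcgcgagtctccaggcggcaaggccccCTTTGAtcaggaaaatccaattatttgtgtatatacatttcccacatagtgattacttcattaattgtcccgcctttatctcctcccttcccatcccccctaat
This core, on either strand, is found in 13.8% of the 32851 windows. Of 11 Wnt targets tested, 4 lay lower without overlap and 0 higher, with a median of -0.25 (-0.20 within number 1 and -0.26 within number 2). Axin2, the feedback inhibitor of Wnt signalling, had 27.3 and 29.1 TPM at 1 h, against 37.4 and 34.96 TPM untreated (-0.35, SE 0.16).

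Targets of other signalling pathways were mostly on the lower side. Among 9 feedback targets of ERK signalling, 5 were lower and 1 higher without overlap (median -0.23, with -0.16 within number 1 and -0.31 within number 2). Spry2, an inhibitor of receptor tyrosine kinase signalling, had 9.73 and 13.3 TPM at 1 h, against 16.3 and 20.8 TPM untreated (-0.65, SE 0.196), and Dusp6, a phosphatase of ERK, had 24.9 and 37.0 TPM at 1 h, against 46.8 and 62.5 TPM untreated (-0.81, SE 0.343). The 9 hedgehog targets held 4 lower and 0 higher without overlap (median -0.28, with -0.41 within number 1 and -0.17 within number 2). Ptch1, the hedgehog receptor and target, had 35.01 and 32.1 TPM at 1 h, against 55.9 and 45.3 TPM untreated (-0.57, SE 0.232). Of 10 Notch genes, 5 were lower and 2 higher without overlap (median -0.25, but -0.005 within number 2). Lfng, a glycosyltransferase that modifies Notch, had 34.6 and 37.8 TPM at 1 h, against 57.3 and 58.2 TPM untreated (-0.66, SE 0.285). The BMP list had a median of -0.28 over 9 genes (-0.48 within number 1 and -0.07 within number 2) with 1 in each direction without overlap.

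Immediate early genes, which react to stimuli within minutes, showed no common direction. Of 22 tested, 6 were higher and 7 lower without overlap, and the median was -0.01, with -0.12 within number 1 and 0.03 within number 2. The 3 with the smallest p were lower. Myc, a regulator of growth, had 34.9 and 21.7 TPM at 1 h, against 73.5 and 58.1 TPM untreated (-1.22, SE 0.395). Ccn1, a secreted matrix protein, had 15.2 and 14.98 TPM at 1 h, against 24.6 and 22.9 TPM untreated (-0.62, SE 0.142), and its relative Ccn2 had 14.03 and 10.7 TPM at 1 h, against 20.3 and 19.7 TPM untreated (-0.66, SE 0.219). For Myc the wild type time course was 73.5 and 58.1 TPM untreated, 34.9 and 21.7 TPM at 1 h, and 74.2 and 49.0 TPM at 3 h. The 3 h value of number 1 thus lay just above both untreated values and that of number 2 below them, and both lay above the 1 h values.

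Stress programmes other than p53 differed among themselves. The 12 heat shock genes had a median of 0.02 (0.16 within number 1 and -0.13 within number 2) with 1 higher and 0 lower without overlap, the 14 genes of the integrated stress and unfolded protein response -0.03 with 1 and 2, and the 10 NRF2 targets 0.02 with 1 and 1. Mt1, a metallothionein, had 122 and 118 TPM at 1 h, against 74.99 and 67.6 TPM untreated (0.74, SE 0.196). Of 9 NF-kappaB targets 4 were higher and 0 lower without overlap (median 0.10, with 0.08 within number 1 and 0.05 within number 2), with Nfkbia, the inhibitor of NF-kappaB and its own target, at 18.01 and 27.03 TPM at 1 h, against 11.0 and 16.01 TPM untreated (0.69, SE 0.288). Of 12 interferon response genes 5 passed the filter on low values, with 1 in each direction without overlap, and over all 12, tested or not, 5 were higher and 2 lower without overlap.

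Cell cycle and repair genes differed little. Of 28 genes of G2 and mitosis, 7 were lower and 1 higher without overlap, and the median was -0.10 (-0.14 within number 1 and -0.06 within number 2). At an unadjusted p under 0.05 there were 2, both lower. Plk1, the kinase that drives mitotic entry, had 119 and 115 TPM at 1 h, against 165 and 191 TPM untreated (-0.60, SE 0.147), and Aurka, the spindle pole kinase that activates it, had 84.2 and 91.1 TPM at 1 h, against 109 and 119 TPM untreated (-0.37, SE 0.153). For Plk1 the time course was 165 and 191 TPM untreated, 119 and 115 TPM at 1 h, and 56.7 and 62.3 TPM at 3 h. The 25 genes of G1/S and replication had a median of 0.02, with 5 higher and 2 lower without overlap. E2f2, an activator of S phase genes, had 12.3 and 10.6 TPM at 1 h, against 6.89 and 6.45 TPM untreated (0.70, SE 0.217). Of 21 genes of double-strand break repair, 1 was higher and 2 lower without overlap: Brca1 had 27.3 and 24.6 TPM at 1 h, against 39.4 and 38.03 TPM untreated (-0.56, SE 0.194), and Brca2 had 12.95 and 15.3 TPM at 1 h, against 20.3 and 21.8 TPM untreated (-0.55, SE 0.224). Both act in homologous recombination.

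Metabolic lists pointed in different directions. Cholesterol synthesis genes had 8 higher and 0 lower of 14 without overlap (median 0.28, with 0.22 within number 1 and 0.37 within number 2). Fdps, farnesyl diphosphate synthase, had 185 and 228 TPM at 1 h, against 130 and 140 TPM untreated (0.61, SE 0.177), and Insig1, the sterol sensor of the pathway, had 48.9 and 61.0 TPM at 1 h, against 38.4 and 35.9 TPM untreated (0.55, SE 0.234). Glycolysis genes had 5 lower and 0 higher of 13 (median -0.23, with -0.28 within number 1 and -0.24 within number 2). Hypoxia targets had 6 lower and 0 higher of 15 (median -0.13, with -0.33 within number 1 and -0.23 within number 2). Slc2a1, the glucose transporter GLUT1, had 175 and 162 TPM at 1 h, against 283 and 316 TPM untreated (-0.82, SE 0.237). Pdk1, a kinase that inhibits pyruvate dehydrogenase, had 45.5 and 47.4 TPM at 1 h, against 72.4 and 78.5 TPM untreated (-0.69, SE 0.264). The 2 hypoxia targets were lower within both numbers.

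Ribosomal protein and respiratory chain genes split by number. The 79 ribosomal protein genes had a median of 0.28, made of -0.08 within number 1 and 0.59 within number 2, with 7 higher and 1 lower without overlap. The 36 nuclear subunits of the respiratory chain had 0.26, made of -0.11 and 0.64 within numbers 1 and 2. Rpl5, a protein of the large subunit that also binds MDM2, had 369 and 1316 TPM at 1 h, against 328 and 263 TPM untreated (1.24, SE 0.717). Rpl37 had 762 and 1329 TPM at 1 h, against 613 and 597 TPM untreated (0.73, SE 0.316). In both genes the gap was far larger within number 2, the number of the 1 h library that stood apart. The median difference within number 2 also varied with transcript length, but not steadily. It was 0 among the 3100 genes of 117 to 1512 bases and 0.10 among the 3104 genes of 1513 to 2573 bases. Among the 3099 genes of 5011 bases or more it was -0.15. Within number 1 these medians were 0, -0.02 and -0.06. Hist1h2ap, a histone gene, had 16.2 and 1350 TPM at 1 h, against 27.7 and 22.5 TPM untreated. The 1 h library labelled knockout and numbered 2 was as high, at 1357 TPM, against 13.6 TPM in number 1 of its group. The part of library composition in these differences was not tested.

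Markers of other tissues were examined because whole embryos mix many cell types. Of 12 markers of white blood cells and macrophages, 5 passed the filter on low values and all 5 were higher without overlap (median 0.69, with 0.77 within number 1 and 0.84 within number 2). C1qb and Csf1r would not have passed without the 1 h libraries, where they are high. The count and the median over the tested members therefore describe them and do not stand as support. Over all 12 markers, tested or not, 10 were higher and 0 lower without overlap, and their summed level was 14.2 and 13.5 TPM at 1 h, against 3.60 and 4.64 TPM untreated. The sum was 13.4 and 9.34 TPM at 1 h under the knockout label and 3.76 to 4.66 TPM at 3 h under the wild type label. Cd68, a lysosomal protein of macrophages, had 8.52 and 4.15 TPM at 1 h, against 1.91 and 1.80 TPM untreated (1.29, SE 0.453), and was the largest member of the sum in both 1 h libraries. C1qb, a complement subunit of macrophages, had 0.70 and 1.34 TPM at 1 h, against 0 and 0.08 TPM untreated. Levels of this size are near the filter.

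Primitive red cell transcripts were higher in sum, at 10283 and 13176 TPM at 1 h, against 7530 and 7848 TPM untreated, but only 2 of 11 members were higher without overlap and 1 lower. Hbb-bh1, an embryonic beta-like globin, had 2441 and 3513 TPM at 1 h, against 1329 and 1469 TPM untreated (1.07, SE 0.558). Globin levels varied widely over the series, with sums of 2334 to 10458 TPM in the embryos labelled knockout at 1 h and untreated.

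Neural crest genes had 7 lower and 0 higher of 11 without overlap (median -0.36, with -0.36 within number 1 and -0.17 within number 2), led by Sox9 at 24.3 and 13.7 TPM at 1 h, against 31.4 and 26.1 TPM untreated (-0.62, SE 0.287). Gut endoderm genes had 5 lower and 0 higher of 11 (median -0.39, with -0.38 and -0.44 within numbers 1 and 2). Foxa1, a pioneer factor of endoderm, had 3.65 and 4.13 TPM at 1 h, against 7.67 and 6.98 TPM untreated (-0.77, SE 0.174). Foxa2, of endoderm and floor plate, had 6.68 and 5.29 TPM at 1 h, against 13.3 and 9.46 TPM untreated (-0.82, SE 0.337). Fewer cells of a type and less RNA per cell cannot be told apart for either list.

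Heart, vessel and limb genes had negative medians, with few members apart. Cardiac muscle genes had 5 lower and 1 higher of 15 (median -0.21, with -0.10 within number 1 and -0.16 within number 2). Endothelial genes had 2 lower and 0 higher of 12, a share near the 16% of all tested genes (median -0.27, with -0.21 within number 1 and -0.02 within number 2). Limb and lateral mesoderm genes had 4 lower and 1 higher of 10 (median -0.27, with -0.39 within number 1 and -0.05 within number 2). Kdr, the VEGF receptor of endothelium, had 23.02 and 25.6 TPM at 1 h, against 28.9 and 34.03 TPM untreated (-0.36, SE 0.142). Somite genes had a median of -0.02 over 9 members. Of the tissues around the embryo, the trophoblast markers Prl3d1, Tpbpa and Prl2c2 and the decidua marker Prl8a2 were listed at 0 in all 4 libraries. Other members of these lists were present, Hand1 (25.5 to 47.9 TPM) and Plac1 (2.91 to 4.05 TPM) among them, and the trophoblast list summed to 37.9 and 31.4 TPM at 1 h, against 54.2 and 34.8 TPM untreated, and the decidua list to 59.6 and 62.1 TPM at 1 h, against 65.7 and 62.1 TPM untreated. Hand1 is also made in heart and lateral mesoderm. The visceral endoderm list had 3 lower and 0 higher of 11 without overlap (median -0.51, with -0.24 within number 1 and -0.52 within number 2) and summed to 69.7 and 49.9 TPM at 1 h, against 90.9 and 54.3 TPM untreated.

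**Figure D5:**
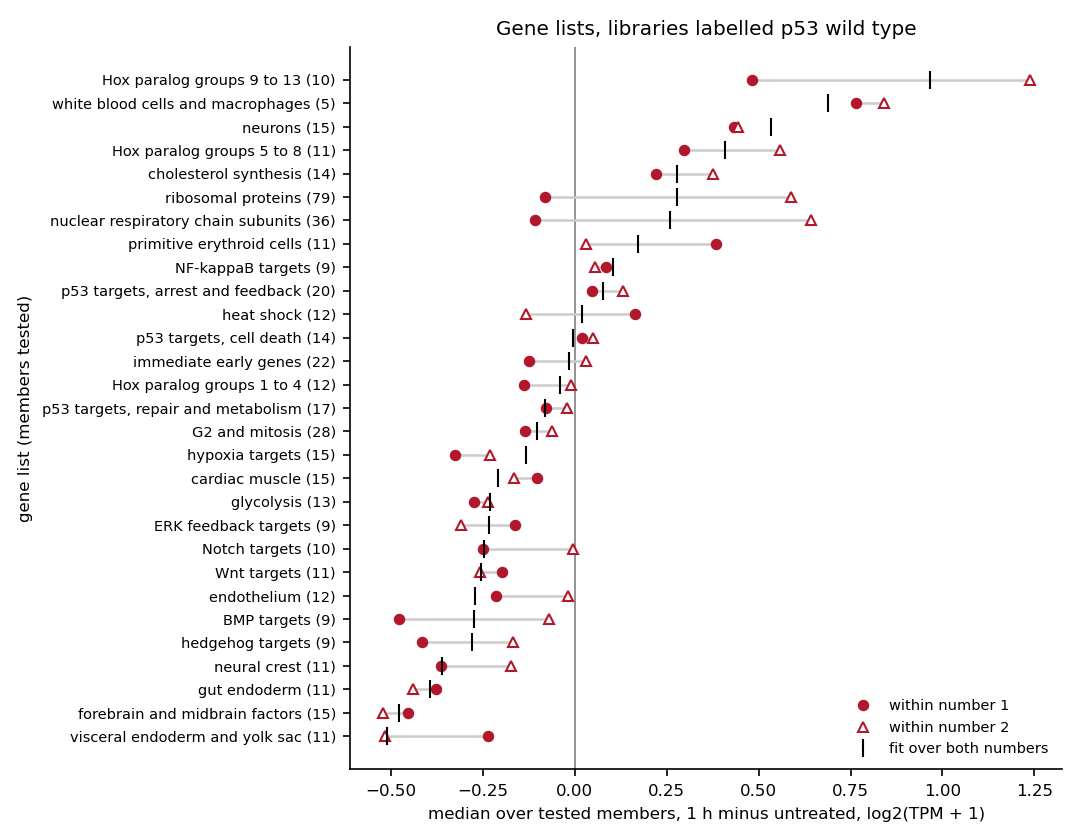
Median log2 difference between 1 h and untreated libraries labelled p53 wild type for most of the gene lists described (members tested in parentheses), within number 1 (filled circles), within number 2 (open triangles) and in the fit over both (bars). Of the lists drawn, posterior Hox genes (0.97) are highest and visceral endoderm genes (-0.51) and forebrain and midbrain factors (-0.48) lowest, each with both numbers on the same side, whereas ribosomal protein and respiratory chain genes lie on opposite sides in the 2 numbers.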

How the data were processed

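Transcript abundance was measured by RNA-seq in 12 libraries of whole mouse embryos, with polyA selection and paired reads of 75 bp, per the labels' protocols. The authors deposited TPM per gene, scaled within each library (column sums 999999.1 to 1000000.84), so read depth is unknown and TPM is not a count. The submitters' processing notes list the build GRCm39 and, with no role for any of them, RSEM 1.3.3, STAR 2.7.3a, R 4.3.3, DESeq2 1.42.1 and HTSeq 0.12.3. The annotation release and strand setting were not given in the sources used, so values of close paralogs and overlapping genes are uncertain. Gene symbols were matched by ID for 52093 of 53647 IDs (97.1%), and only symbols, lengths and GC content were taken from the reference annotation, which is of another build.

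Values of log2(TPM + 1) were fitted with limma 3.58.1 (R 4.3.3) for 15535 genes at 1 TPM or more in at least 2 libraries, with 1 mean per group over all 12 libraries, a trend of the spread with level and two-sided Benjamini-Hochberg adjusted p-values over all genes tested. A fold change on this scale understates changes of low genes. The fit had 6 residual degrees of freedom, or 5 when the library number was a term. The threshold for a call was an adjusted p under 0.05. The script was tested on simulated data. Plots were made with matplotlib 3.10.9 under Python 3.11.15.

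The labels number the libraries of each group 1 and 2. Deviations from the group means were shared by libraries of equal number in all 15 pairs of groups (correlation across genes 0.327 to 0.796, and 0.387 between the 1 h and untreated groups labelled wild type), so the numbers were taken to pair the libraries, and the fit with the number as a block stands beside the main one. The 2 libraries of a group correlated across genes at 0.938 (1 h) and 0.973 (untreated), and shared at most 1.33% of their values exactly, and each was kept as a library of its own.

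The genes and the 44 gene lists were chosen with earlier results of these data known. Named genes are Trp53 and the title genes, up to 10 genes in each direction with the smallest p among those with a log2 difference of at least 1, no overlap and a mean of at least 5 TPM in the higher group, up to 3 members of each list with the smallest p, Hox genes of groups 5 to 13, called differences of the responses, and up to 4 genes with the largest gap between the numbers. Alternatives were another pseudocount, filter, scaling, model of the spread, library weights, the groups compared alone, the replicate block and each library left out. Leaving out both libraries numbered 2 of the wild type label, or both 1 h libraries numbered 2, was added after seeing the data.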

Additional observations from a re-analysis of the deposited data

Results flagged for a closer look

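The 1 h response of Cdkn1a differed between the labels by the test of the difference itself: labelled wild type minus labelled knockout was -3.31 on the log2 scale (SE 0.264, limma, Benjamini-Hochberg adjusted p = 0.0130). The libraries labelled wild type had 6.01 and 8.36 TPM at 1 h, against 5.91 and 6.60 TPM untreated, and the libraries labelled knockout had 79.4 and 76.2 TPM at 1 h, against 6.88 and 5.38 TPM untreated. Both labelled knockout libraries at 1 h lay above all the others in these 4 groups, and Trp53 transcript was also higher in them (250 and 210 TPM) than in the 1 h libraries labelled wild type (114 and 66.8 TPM). The part of the Trp53 level in this difference was not tested.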

How the results depend on the processing

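Of 66 named genes, 62 kept their sign and 0 passed the threshold under every alternative that gave a value (17, or 16 for Hoxa10, Hoxc10, Hoxd10 and Mapt). The count of kept signs was largely fixed in advance and does not stand as support. A gene whose groups do not overlap cannot turn its sign within a number or when a single library is left out. The filters, models of the spread, library weights, replicate block and groups compared alone leave the log2 difference unchanged. Called genes (0 in the main fit) numbered 4 with no filter on low values, 0 to 2 with 1 library left out (2 without the untreated library numbered 1) and 2 without both 1 h libraries numbered 2. None was among those 66. With no filter AI197445 was called (-1.41, limma, Benjamini-Hochberg adjusted p = 0.0034), a gene near the filter even where it is high (1.69 and 1.77 TPM untreated). Genes at an unadjusted p under 0.05 (618) numbered 1270 with no filter, 1609 with the replicate block, 404 with only the groups compared, 345 to 1449 with 1 library left out (345 without the 1 h library numbered 2, 1449 without number 1) and 254 without both libraries numbered 2. Called differences of the responses (1) numbered 4 with no filter, 3 with a TPM of at least 5, with size factors or with quantile normalization, 8 with the replicate block, 0 with only the groups compared, 0 to 4 with 1 library left out and 0 under both alternatives added after seeing the data. The paired fit changed no other call. Signs turned for 4 genes: Trp53 to 0.00439 without both libraries numbered 2; Cdkn1a to -0.0479 without the 1 h library numbered 2 (range -0.0479 to 0.37 with 1 library left out) and likewise without both 1 h libraries numbered 2; Ccng1 to 0.18 without the untreated library numbered 2 (-1.27 to 0.18) and 0.0711 within number 1; and Fbxw7 to 0.17 without the 1 h library numbered 2 (-0.35 to 0.17) and 0.23 within number 1. The adjusted p of the Cdkn1a difference ranged from 0.00811 to 0.375 over its alternatives, with a size of -3.55 to -3.10. The cause of these shifts was not tested. With 2 libraries a group and unknown depth, small differences are not detectable here.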

Other observations

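The following genes were chosen after their values were seen and were not called (limma, adjusted p = 0.890 each). Fzd7, a Wnt receptor, averaged 40.1 TPM at 1 h and differed by -0.80 (SE 0.143). Foxc1, a forkhead factor of mesoderm and neural crest, differed by -0.83 (SE 0.143), with -0.83 and -0.84 within numbers 1 and 2. Efnb2, an ephrin of arteries and somite borders, differed by -0.74 (SE 0.131), and Irx5, a homeobox factor of heart and limb, by -0.68 (SE 0.145). Nr6a1, an orphan nuclear receptor that acts in trunk formation in the mouse, differed by -0.93 (SE 0.202), with -0.65 and -1.21 within numbers 1 and 2. All 5 genes had the same sign under the knockout label (-1.16, -0.97, -1.09, -0.68 and -1.33 in that order). Over all tested genes the differences under the 2 labels correlated at a Pearson r of 0.622, so the shared sign is not particular to these genes.

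The 2 platelet genes Pf4 and Ppbp, likewise chosen after seeing the values, were higher within both numbers. Pf4 differed by 1.22 (SE 0.556) and Ppbp, at a low level of 1.64 TPM on average at 1 h, by 1.22 (SE 0.265).

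Some transcripts differed widely between the 2 libraries of a group. Bc1, a small brain RNA, had 24.2 and 0 TPM at 1 h, against 25.2 and 60.1 TPM untreated. Snora65, a small nucleolar RNA, had 26.6 and 0 TPM at 1 h, against 49.4 and 63.7 TPM untreated. Eif2s3y, on the Y chromosome, had 33.9 and 36.3 TPM at 1 h, against 34.4 and 0 TPM untreated.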
